A study of Mus musculus with 4 samples.

Results

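The small leucine-rich proteoglycans examined here were 9 genes, chosen by name: Dcn, Bgn, Lum, Fmod, Ogn, Aspn, Prelp, Omd and Podn. They were chosen with earlier results of these data known, so counts of members past a threshold are descriptions and not tests. Each name matched 1 gene, so they made up 9 of the 51826 genes in the count table, and all 9 were among the 16734 genes tested, those whose raw counts averaged 10 or more. They were followed in cells of the dermal papilla (DPCs) and of the dermal sheath (DSCs) of the hair follicle, at passage 3 (low passage) and passage 9 (high passage), a comparison made in a study of how expansion in culture alters the return of injected cells to the follicle. The dermal papilla is the mesenchymal signalling centre at the base of the follicle, and the dermal sheath is the mesenchymal layer that wraps it. There was 1 library in each of the 4 groups, so no group has a replicate check.

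In the study's methods, the cells came from whisker follicles of EGFP-transgenic C57BL/6J mice aged 5 to 6 weeks, and they grew in DMEM with 10% serum. The labels give the genotype of all 4 groups as WT, so the transgene stands only in the methods. No agent was added, and passage was the treatment that the labels name. The methods describe poly-T selection of RNA and paired-end Illumina sequencing, without naming the samples, so this may describe other samples of the study. The number of mice behind each culture was not given in the sources used here, and passage cannot be told apart from anything else that differed between the cultures or libraries.

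The libraries held 34981284 to 47604059 counts. A count of 0 was read against a floor of 3 counts, which was 0.0658 to 0.0836 CPM (counts scaled to library size, as given below). Fibroblast markers such as Vim and Col1a2 were abundant in all 4 libraries, but the list was lowest in high-passage DPCs. The summed CPM of the 9 markers was 32092 and 11459 in DPCs at passages 3 and 9, and 52724 and 44748 in DSCs. Their median log2 fold change with passage was -1.31 in DPCs, where 1 of 9 was above 0, and -0.19 in DSCs, where 3 were. Of 9 papilla markers, Alpl, Lepr, Corin and Prom1 were at or near 0. Counts are given below for DPCs at passages 3 and 9 and then DSCs at passages 3 and 9. Sox2 was higher in DPCs at both passages (1677, 1491, 269 and 178 counts), whereas Crabp1 (22409, 14584, 1518 and 20405) and Lef1 (508, 2, 101 and 55) were higher in DPCs at passage 3 but not at passage 9. Ncam1, whose product the study names as a marker of both cell types, was higher in DSCs (3642, 1673, 11755 and 15584). Vcan was within 2-fold between the cell types at each passage. All 5 sheath markers were higher in DPCs than in DSCs at passage 3, among them Acta2 (262118, 67135, 217199 and 197315), and 1 of 5 was so at passage 9. These 5 sheath markers thus went against the labels at passage 3, whereas Ncam1 was higher in DSCs. Of 10 keratinocyte markers, Krt1, Krt5, Krt14, Krt15 and Cdh1 were at 0 in all 4 libraries and 3 were tested, of which Dsp was higher at passage 9 and in DSCs (10, 184, 84 and 2307 counts). Of 6 melanocyte markers, Tyr, Tyrp1, Dct and Mlana were at 0, and Mitf had 394, 980, 435 and 544 counts.

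Small leucine-rich proteoglycans are secreted matrix proteins built around a curved array of leucine-rich repeats, which binds collagen and regulates how fibrils assemble and how thick they grow. Decorin and biglycan, from Dcn and Bgn, carry chondroitin or dermatan sulfate chains, whereas lumican, fibromodulin and osteomodulin, from Lum, Fmod and Omd, can carry keratan sulfate. Several bind growth factors of the TGF-β family, and biglycan and decorin can also engage Toll-like receptors. In skin, decorin and lumican are prominent products of dermal fibroblasts, and fibromodulin is typical of tendon and cartilage.

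The 9 genes do not lie at random, because 7 of them belong to 3 gene clusters. On the GRCm38 build, Aspn (chr13:49544443-49567565), Omd (chr13:49582462-49592822) and Ogn (chr13:49608046-49624501) stand in a row on the plus strand, 14.9 and 15.2 kb apart, with the relative Ecm2 11.7 kb before Aspn. Dcn (chr10:97479609-97518143) and Lum (chr10:97565128-97572703) are 47.0 kb apart on the plus strand, followed by Kera and Epyc. Prelp (chr1:133910304-133921414, minus strand) lies 116 kb from Fmod (chr1:134037254-134048277, plus strand), with Optc 2.30 kb beyond Prelp. Bgn (chrX:73483602-73495933, plus strand) and Podn (chr4:108014791-108096445, minus strand) stand outside these clusters. The 3 chromosome 13 genes were the only members at least 4-fold higher at passage 9 in both cell types, so the sequences before their start sites are shown first, beside that of Bgn, which was abundant and changed little. Each is the 250 bases before the RefSeq start on build GRCm38.p6, written 5′ to 3′. Capitals mark TATAAA, the letters of a TATA box, and GGAATG, a motif of TEAD factors, on either strand and anywhere in the window.
Aspn, chr13:49544193-49544442, plus strand: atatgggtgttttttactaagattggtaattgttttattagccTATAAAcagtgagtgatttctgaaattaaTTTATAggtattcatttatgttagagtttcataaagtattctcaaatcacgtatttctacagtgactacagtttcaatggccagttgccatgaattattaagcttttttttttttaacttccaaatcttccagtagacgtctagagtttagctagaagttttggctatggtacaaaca
Omd, chr13:49582212-49582461, plus strand: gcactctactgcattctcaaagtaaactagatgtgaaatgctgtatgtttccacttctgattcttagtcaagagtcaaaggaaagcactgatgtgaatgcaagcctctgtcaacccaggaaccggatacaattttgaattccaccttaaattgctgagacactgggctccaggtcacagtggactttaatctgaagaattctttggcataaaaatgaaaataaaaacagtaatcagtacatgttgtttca
Ogn, chr13:49607765-49608014, plus strand: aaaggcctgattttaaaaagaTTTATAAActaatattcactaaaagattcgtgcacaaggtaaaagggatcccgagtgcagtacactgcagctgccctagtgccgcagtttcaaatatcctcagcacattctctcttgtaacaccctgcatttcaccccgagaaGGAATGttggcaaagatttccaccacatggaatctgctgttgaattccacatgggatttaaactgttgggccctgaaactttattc
Bgn, chrX:73483351-73483600, plus strand: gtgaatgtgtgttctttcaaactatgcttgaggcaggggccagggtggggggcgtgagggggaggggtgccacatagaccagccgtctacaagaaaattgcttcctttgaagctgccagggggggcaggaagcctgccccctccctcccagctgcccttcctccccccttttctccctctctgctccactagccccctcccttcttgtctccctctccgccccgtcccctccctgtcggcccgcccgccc

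RefSeq promoters were matched for 7 of the 9 genes, all but Dcn and Lum. The 3 chromosome 13 promoters were poor in G and C, at 30.0% for Aspn, 38.4% for Omd and 42.0% for Ogn, and the median of 32851 mouse promoters of the same length was 52.4%. Fmod had 51.2%, Prelp 55.6% and Bgn 64.4%, and the windows matched to Podn had 78.0% and 64.0%. TATAAA was found before Aspn and Ogn and in 12.4% of all promoters, and GGAATG was found before Ogn alone of the matched members and in 12.6% of all promoters. The AP-1 motif TGANTCA, in 6.75% of all promoters, was in none of the members' windows. CANNTG, the E-box, was before 5 members and in 66.2% of all promoters, and CAGAC, a SMAD motif, was before Fmod and Prelp and in 42.2% of all promoters. A match describes the letters in the window and does not show a bound site. The match took no account of distance from the start. The TATAAA stretches of Aspn and Ogn lie toward the far end of their windows, so they are not shown to be TATA boxes.

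The plot of CPM by library shows the members on 1 scale. CPM here is a gene's share of its library's counts, times 1e6, after TMM scaling, which corrects for differences in composition between libraries. In a population of cells, fewer cells that express a gene and less RNA from each cell cannot be told apart.

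**Figure D1:**
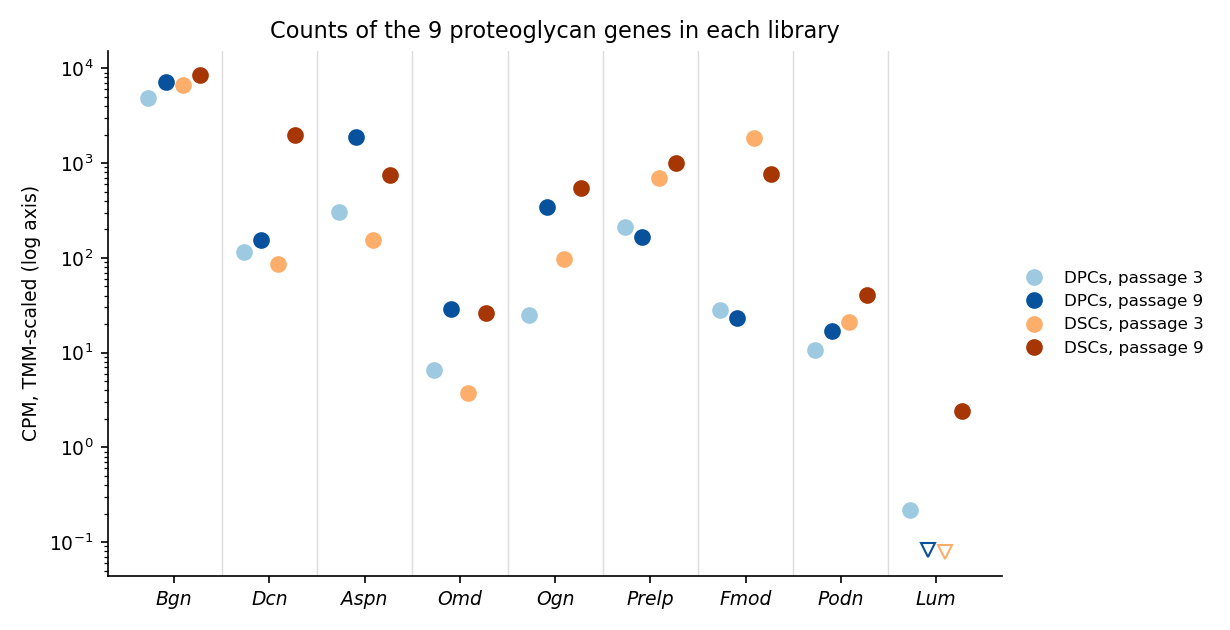
CPM (log axis) of each of the 9 genes, with 1 point for each library; open triangles mark a count of 0 and are drawn at the floor of 3 counts. Bgn stood highest in all 4 libraries, Dcn was high in high-passage DSCs only, Fmod was far higher in both DSC libraries, and Aspn, Omd and Ogn were higher at passage 9 in both cell types.

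Levels of different genes were compared in the deposited FPKM, which is per kilobase of transcript. Bgn, the gene of biglycan, led the family throughout, with 1977 and 2860 FPKM in DPCs at passages 3 and 9 and 2588 and 3214 FPKM in DSCs. It ranked 18, 20, 15 and 14 among all genes of these libraries. By count, Bgn made up 87.2%, 73.2%, 69.9% and 62.7% of the family's counts in the same order, so its share was smallest in high-passage DSCs. The 9 genes together took 0.575% and 1.01% of all DPC counts at passages 3 and 9, and 0.941% and 1.31% of all DSC counts. Their share was thus higher at passage 9 in each cell type and higher in DSCs at each passage.

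Below Bgn the order changed from library to library. In low-passage DPCs the next genes were Aspn (122 FPKM), Dcn (61.6) and Prelp (55.4), and in high-passage DPCs they were Aspn (754), Ogn (123) and Dcn (79.8). In low-passage DSCs they were Fmod (509), Prelp (169) and Aspn (58.5), and in high-passage DSCs they were Dcn (951), Aspn (276) and Prelp (236). Lum was last in all 4 libraries, with 0.0729 FPKM at passage 3 in DPCs and 0.823 at passage 9 in DSCs, and it was listed at 0 in the other two. Close neighbours in low-passage DPCs were Podn (3.90) and Omd (3.72), Ogn (8.87) and Fmod (8.30), and Dcn and Prelp, and in high-passage DSCs they were Prelp and Fmod (211). With 1 library a group there is no spread to set these orders against. The place of Dcn also depends on the length used, since counts per kilobase of all its merged exons put it below Prelp in both DPC libraries (19.9 against 59.2 at passage 3 and 26.2 against 46.3 at passage 9, in CPM per kilobase).

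Ratios between members moved with these orders. In FPKM, Bgn exceeded Dcn by 32.1-fold and 35.8-fold in DPCs at passages 3 and 9, by 60.2-fold in DSCs at passage 3, and by 3.38-fold in high-passage DSCs. The FPKM ratio of Fmod to Prelp was 0.150 and 0.158 in low- and high-passage DPCs, and 3.01 and 0.895 in low- and high-passage DSCs. Omd stayed far below Aspn, its neighbour on chromosome 13, at 0.0304, 0.0223, 0.0346 and 0.0504 of its FPKM in the order of libraries used above.

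The first comparison asked which family members differed between passage 3 and passage 9 in DPCs. Aspn, Omd and Ogn were at least 4-fold higher in the high-passage library, whereas Dcn, Bgn, Fmod, Prelp and Podn differed by less than 2-fold. These 3 genes are 3 of 9 members, beside 5.58% of all genes tested that were at least 4-fold higher. Lum was the 1 member at least 4-fold lower by its fitted value, which rests on 8 counts against 0, beside 4.36% of all genes. In either direction this makes 4 of 9, beside 9.94% of all genes. With Lum at its bound against the floor, 3 members were at least 4-fold higher and 0 were lower past that threshold. The median log2 fold change of the members was 0.58, and that of all genes tested was 0.03.

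Ogn encodes osteoglycin, also called mimecan, a small keratan sulfate proteoglycan of bone and other connective tissues. Its counts were 910 in low-passage DPCs and 12346 in high-passage DPCs. The high-passage library was 13.9-fold higher, with a log2 fold change of 3.80 (95% counting interval 3.70 to 3.90). All intervals of this kind are exact Clopper-Pearson intervals for the share of a pair's counts that fell in 1 library. They compare 2 libraries, not conditions, and cover counting error only.

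Aspn encodes asporin, which binds collagen and TGF-β and has a run of aspartic acid near its start in place of a glycosaminoglycan attachment site. It had 11281 counts in low-passage DPCs and 68252 in high-passage DPCs, a 6.20-fold difference (log2 fold change 2.63, interval 2.61 to 2.66). Omd encodes osteomodulin, a keratan sulfate proteoglycan of mineralised matrix. It had 239 and 1043 counts, a 4.45-fold difference (log2 fold change 2.15, interval 1.96 to 2.37), and its interval reached below the 4-fold line. The counts of all 3 genes were higher in the high-passage library.

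Among the chondroitin and dermatan sulfate proteoglycans, Dcn had 4285 counts in low-passage DPCs and 5494 in high-passage DPCs (log2 fold change 0.39, interval 0.34 to 0.45). Bgn had 177360 and 257781 counts, with a log2 fold change of 0.58. Both were thus slightly higher in the high-passage library, by 1.31-fold and 1.49-fold.

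Fmod, the gene of fibromodulin, had 1037 and 825 counts in low- and high-passage DPCs (log2 fold change -0.29, interval -0.43 to -0.16). Prelp, whose product has a basic end that binds heparan sulfate, had 7870 and 6000 counts (log2 fold change -0.36, interval -0.40 to -0.31). Podn, the gene of podocan, had 391 and 614 counts (log2 fold change 0.68, interval 0.50 to 0.87). On FPKM with a pseudocount of 0.1 the Podn value was 0.35, outside that interval. Lum had 8 counts in low-passage DPCs and 0 in high-passage DPCs, at least 2.60-fold lower against the floor. Counts of 2 and 4 were more common than counts of 3 and 5 in these libraries, as when both ends of a fragment are counted. If each fragment was counted in this way, 8 counts stand for 4 fragments and the interval of the Lum difference includes 0.

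The same comparison in DSCs asked which members differed with passage in the sheath-derived cells. Again Aspn, Omd and Ogn were higher at passage 9, and here Dcn and Lum were higher as well. Thus 5 of 9 members were at least 4-fold higher and none was at least 4-fold lower. Lum reached a mean of 10 counts only through its 109 counts in high-passage DSCs. Its place among the genes tested thus rests on the library where it was high, here and between the cell types at passage 9. Of all genes tested, 2.67% were at least 4-fold higher, 1.16% at least 4-fold lower and 3.82% either. The median log2 fold change of the members was 2.26, and that of all genes tested was 0.00.

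Decorin is the best known of the family, a regulator of collagen fibril width that also binds TGF-β. Dcn had 3292 counts in DSCs at passage 3 and 89544 at passage 9. This 22.6-fold difference (log2 fold change 4.50, interval 4.45 to 4.55) moved Dcn from rank 1486 to rank 42 among all genes by FPKM. Its level in high-passage DSCs was far above its level in the other 3 libraries, which lay between 86.8 and 153 CPM.

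Lum encodes lumican, the keratan sulfate proteoglycan that keeps collagen fibrils ordered in cornea and skin. It had 0 counts at passage 3 and 109 at passage 9, at least 30.2-fold higher against the floor. If both ends of each fragment were counted, the floor of 3 fragments would be 6 counts and this bound would be 15.1-fold. Even in high-passage DSCs, Lum reached only 2.39 CPM. Kera, the keratocan gene next to Lum, had 32 counts in high-passage DSCs and 0 in every other library, a bound of at least 8.88-fold for passage in DSCs. Its mean count was below 10, so it was not among the genes tested. Epyc, the fourth gene of that cluster, had 0 counts in all 4 libraries.

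The chromosome 13 genes were higher in high-passage DSCs. Ogn had 3728 and 24924 counts in low- and high-passage DSCs, a 5.56-fold difference (log2 fold change 2.48, interval 2.43 to 2.53). Aspn had 5905 and 34106 counts, a 4.80-fold difference (log2 fold change 2.26, interval 2.23 to 2.31). Omd had 143 and 1182 counts, a 6.80-fold difference (log2 fold change 2.77, interval 2.53 to 3.04).

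The other 4 members stayed within 4-fold in DSCs. Fmod was the only member lower in high-passage DSCs, with 69521 and 35316 counts, a 2.37-fold difference (log2 fold change -1.24, interval -1.26 to -1.22). Prelp had 26451 and 45469 counts (log2 fold change 0.52). Podn had 795 and 1845 counts (log2 fold change 0.95, interval 0.83 to 1.07). On FPKM with a pseudocount of 0.1 the Podn value was 0.62, outside that interval. Bgn had 255035 and 391019 counts (log2 fold change 0.35).

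The plot of passage changes sets the cell types side by side. Genes at least 4-fold higher in both cell types were 1.27% of all genes tested and 3 of the 9 members, Aspn, Omd and Ogn.

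**Figure D2:**
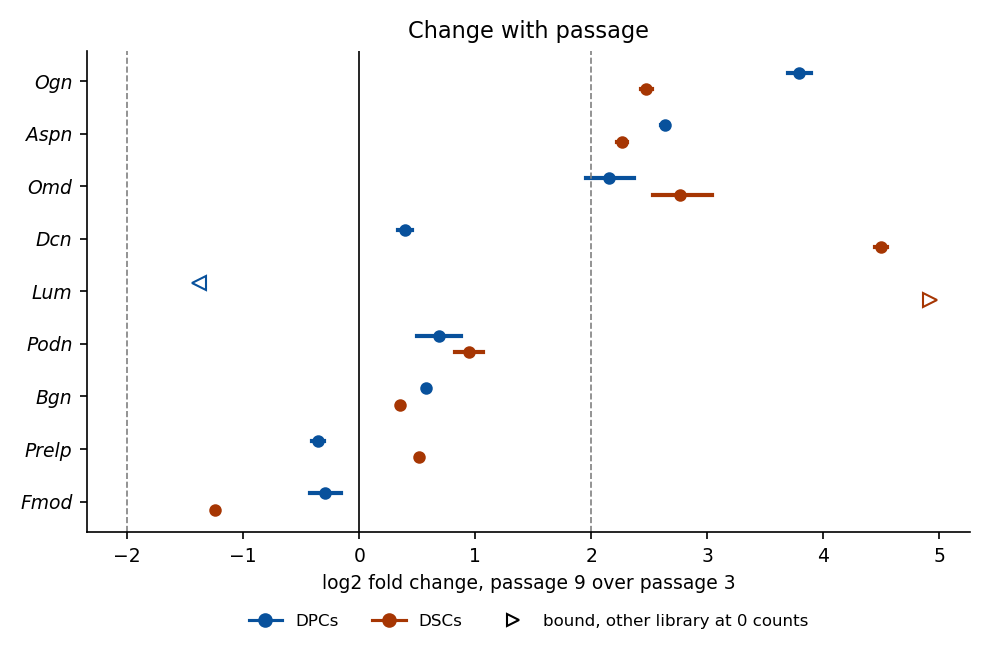
Log2 fold change of passage 9 over passage 3 for each gene in DPCs and DSCs, with 95% counting intervals as bars (hidden by the point where narrow); open triangles are bounds for Lum, whose other library had 0 counts, and dashed lines mark 4-fold. Aspn, Omd and Ogn lie past the 4-fold line on the right in both cell types, and Dcn does so in DSCs only.

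Markers of other cells differed between the passages as well. Of 6 Schwann cell markers tested, 4 were at least 4-fold lower at passage 9 in DPCs and 3 in DSCs. Ngfr (144, 0, 544 and 0 counts), Sox10 (28, 0, 116 and 0) and Cdh19 (33, 0, 95 and 0) had no count at passage 9, whereas Mbp had 93, 97, 219 and 257. The summed CPM was 14.6, 6.35, 36.3 and 10.7 in the same order of libraries. For immune markers, 3 of 7 tested were at least 4-fold lower at passage 9 in DPCs and 1 in DSCs, with sums of 121, 65.2, 169 and 94.3 CPM, and for endothelial markers 2 of 3 tested were so in each cell type, with sums of 0.111 to 5.64 CPM. Of 4 osteoblast markers tested, 1, the matrix phosphoprotein gene Spp1, was at least 4-fold higher in both cell types (39849, 204612, 71137 and 404313 counts), with Sp7 lower in DSCs (38 and 9 counts), and with Ibsp at 0 and Bglap at 2 or 3 counts in all 4 libraries. The part of these cells in the passage differences of the members was not tested.

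Where the 2 cell types differed in their response, the difference was described as the DPC change minus the DSC change on the log2 scale. Without replicate cultures it has no test. Dcn had the widest measured gap, at -4.10 (counting interval -4.18 to -4.03). Ogn was the member with the largest gap in the other direction, at 1.32, since it was 13.9-fold higher in DPCs and 5.56-fold higher in DSCs. The gap was 0.95 for Fmod, -0.87 for Prelp, -0.61 for Omd, 0.37 for Aspn, -0.26 for Podn and 0.22 for Bgn. Prelp was lower at passage 9 in DPCs and higher in DSCs. Dcn and Lum were 2 of 9 members with a gap of at least 4-fold, beside 7.48% of all genes tested, and the value for Lum rests on libraries at 0 counts.

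DPCs were then compared with DSCs at passage 3, to ask which members set the cell types apart early in culture. Fmod was the member that did so most, and it was 64.9-fold lower in DPCs. Its counts were 1037 in low-passage DPCs and 69521 in low-passage DSCs (log2 fold change -6.02, interval -6.11 to -5.94). In either direction 2 of 9 members were at least 4-fold different, Fmod (lower) and Lum (higher), beside 4.3% of all genes tested, of which 2.77% were lower and 1.52% higher. The Lum value is 8 counts in DPCs against 0 in DSCs, at least 2.75-fold higher in DPCs, so that with bounds Fmod was the 1 member past 4-fold. The median log2 fold change was -0.48 for the members and 0.00 for all genes tested.

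Ogn lay just inside the 4-fold line, 3.97-fold lower in low-passage DPCs (910 against 3728 counts, log2 fold change -1.99, interval -2.10 to -1.89). Prelp was 3.26-fold lower in low-passage DPCs (log2 fold change -1.71), and Podn 1.97-fold lower (log2 fold change -0.98). Bgn was 1.40-fold lower. Aspn was 1.97-fold higher in low-passage DPCs, Omd 1.71-fold higher and Dcn 1.34-fold higher.

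At passage 9, more members were past 4-fold between the cell types than at passage 3, although Fmod, Ogn, Bgn and Omd had smaller differences than at passage 3. Dcn, Lum, Fmod and Prelp were at least 4-fold lower in DPCs, 4 of 9 members beside 3.91% of all genes tested, and no member was at least 4-fold higher, beside 2.5% of all genes. Past 4-fold in either direction were 6.42% of all genes. The median log2 fold change was -1.24 for the members and -0.01 for all genes tested. Other matrix genes lay the same way. Of 13 collagens that the family binds, 3 were at least 4-fold lower in high-passage DPCs and none at least 4-fold higher, with a median of -1.16. Of 9 fibroblast markers, 4 were at least 4-fold lower and none at least 4-fold higher, with a median of -1.92. The 2 lists share Col1a1, Col1a2 and Col3a1. With Lum at its bound in place of its fitted value, the members' median was the same in all 4 comparisons.

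Fmod was 33.6-fold lower in high-passage DPCs than in high-passage DSCs, with 825 against 35316 counts (log2 fold change -5.07, interval -5.18 to -4.98). Dcn was 12.8-fold lower, with 5494 against 89544 counts (log2 fold change -3.68, interval -3.72 to -3.64). Prelp was 5.97-fold lower, with 6000 against 45469 counts (log2 fold change -2.58, interval -2.62 to -2.54). Lum had 0 against 109 counts and was at least 28.6-fold lower. These 4 genes were all highest in a DSC library.

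Of the rest, Podn was 2.36-fold lower in high-passage DPCs, Ogn 1.59-fold lower and Bgn 1.19-fold lower. Aspn was 2.54-fold higher in high-passage DPCs (68252 against 34106 counts), so it was higher in DPCs than in DSCs at both passages. Omd differed by 1.12-fold (1043 against 1182 counts in libraries of unequal size, log2 fold change 0.16), and with halved counts its interval, -0.01 to 0.34, included 0.

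**Figure D3:**
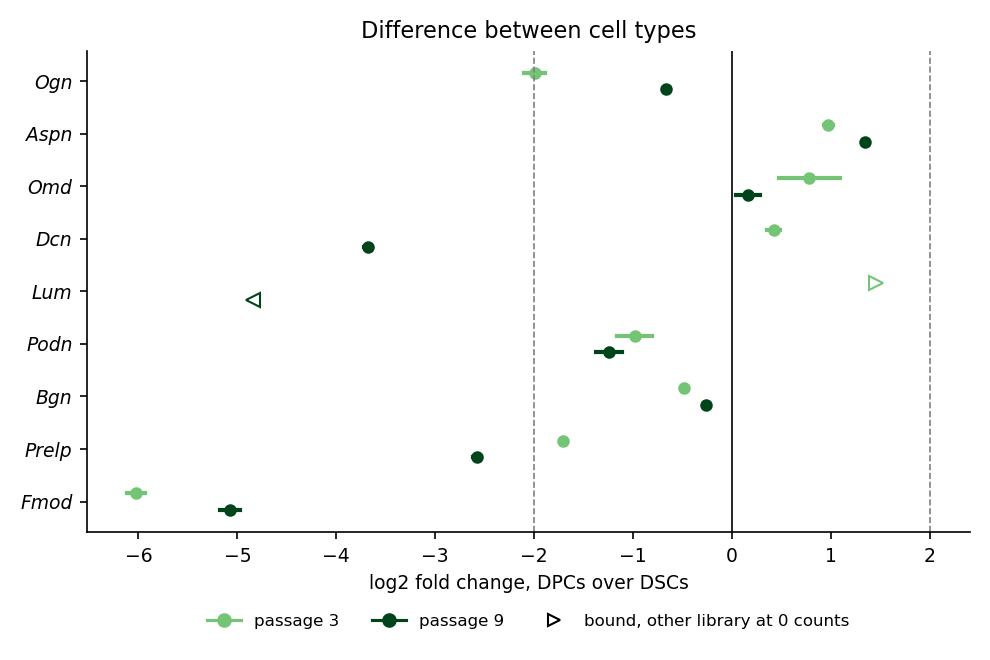
Log2 fold change of DPCs over DSCs for each gene at passage 3 and passage 9, with 95% counting intervals as bars (hidden by the point where narrow); open triangles are bounds for Lum and dashed lines mark 4-fold. Fmod lies far to the left at both passages, and Dcn is near 0 at passage 3 and at -3.68 at passage 9.

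The 4 libraries each enter 2 of these comparisons, so the comparisons are not independent of one another. Fmod was the 1 member at least 4-fold lower in DPCs at both passages, beside 1% of all genes tested.

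A fit across all 4 libraries gave the only test that the design allows. It takes cell type and passage as additive effects, and the 1 degree of freedom left reflects unequal responses of DPCs and DSCs to passage, not replicate cultures. For passage, edgeR's quasi-likelihood test with Benjamini-Hochberg adjustment called 0 of 9 members and 0% of all genes, with 2822 genes at an unadjusted p under 0.05, 4 members among them (Aspn, Ogn, Omd and Podn). The adjusted p was 0.188 for Aspn, Omd and Ogn. DESeq2, which borrows its spread across genes in another way, called Aspn, Ogn and Omd for passage and 5.71% of all genes.

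For cell type, edgeR called 0 of 9 members and 0% of all genes, with 1381 genes at an unadjusted p under 0.05 and 5 members among them (Aspn, Fmod, Ogn, Podn and Prelp). Fmod had the smallest adjusted p of the members, 0.0797. DESeq2 called Fmod, Prelp, Aspn and Ogn and 2.96% of all genes. The calls thus differed between edgeR and DESeq2, which differ in scaling, in the estimate of spread and in the form of the test. Which of these mattered was not tested.

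Other genes in the same places were examined for the clusters. Ecm2, which precedes Aspn and is a relative of the family, had 150, 239, 358 and 753 counts in low- and high-passage DPCs and then low- and high-passage DSCs, with log2 fold changes for passage of 0.70 in DPCs and 0.80 in DSCs. It did not reach 4-fold, unlike the 3 genes after it. Of the 9 other genes tested within 500 kb of this cluster, 1 was at least 4-fold higher at passage 9 in DPCs and none in DSCs, where 1 was at least 4-fold lower. That gene was AC123954.1 in both cases, a low-count gene with 8 and 37 counts in DPCs and 35 and 0 in DSCs, named after its values were seen. The median log2 fold change of these 9 neighbours was 0.73 in DPCs and -0.03 in DSCs.

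Optc, the opticin gene beside Prelp, had 14, 4, 15 and 26 counts. Of the 16 other genes tested within 500 kb of that cluster, none was past 4-fold with passage in DPCs, while in DSCs 1 was higher past that threshold (Chil1, 0 and 56 counts, named after its values were seen). No other gene within 500 kb of the Dcn and Lum cluster had enough counts to be tested. Aspn, Omd and Ogn lie inside Cenpp, a gene of the opposite strand that had 161 to 229 counts and shares 7 exonic bases with Aspn. Podn overlaps Scp2, a gene of the same strand that had 1941 to 4134 counts and shares 0 exonic bases with it. Prelp shares 350 exonic bases with the antisense gene Gm15851, whose counts of 105, 56, 356 and 554 were 0.933% to 1.35% of those of Prelp. The strand setting of the counting was not given in the sources used here, so reads of Prelp and Gm15851 cannot be told apart.

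**Figure D4:**
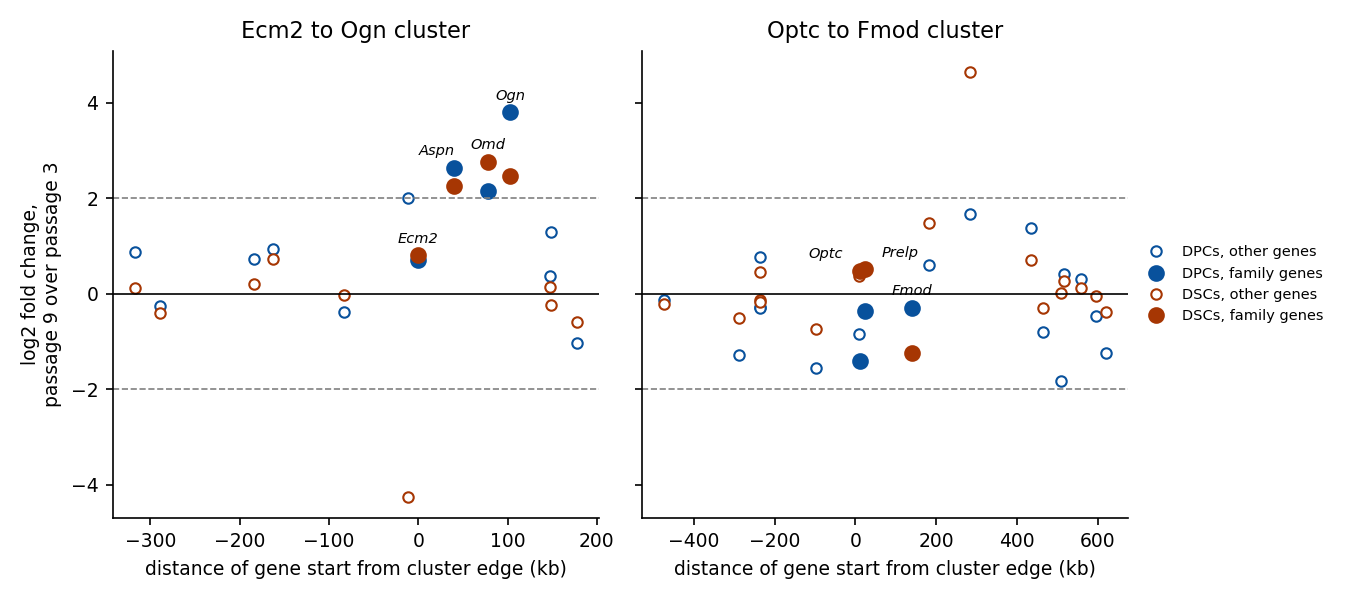
Log2 fold change of passage 9 over passage 3 against the distance of each gene's start from the edge of the cluster in kb, for the cluster from Ecm2 to Ogn (left) and that from Optc to Fmod (right); filled points are family genes, open points other tested genes within 500 kb, and points of genes with a library at 0 counts are fitted values. Aspn, Omd and Ogn lie above the dashed 4-fold line in both cell types while Ecm2 beside them does not.

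The remaining genes of the family gave little signal. Of 9 other family genes, 5 were tested, and none of them was past 4-fold with passage in either cell type. Their median log2 fold change was 0.49 in DPCs and 0.16 in DSCs. Their CPM summed over the list was 34.1 to 40.1, beside 5527 to 13682 for the 9 members.

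The collagens that the family binds were a group of 13 genes, all tested. In DPCs none was at least 4-fold higher at passage 9 and 3 were at least 4-fold lower, and the list's median log2 fold change was -1.36, or -1.39 without Col2a1, which had 0 counts in both DPC libraries, and with Col14a1 at its bound. Col1a1, the main chain of type I collagen, had 266500 and 43703 counts (log2 fold change -2.57). Col3a1, of type III collagen, had 45727 and 5565 counts and was 8.01-fold lower. Col14a1, a collagen that sits on fibril surfaces, had 57 and 0 counts, at least 18.5-fold lower.

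In DSCs 2 of the 13 collagens were at least 4-fold lower and none was higher, with a median of -0.37. Col14a1 had 227 and 53 counts (log2 fold change -2.31), and Col2a1, the cartilage collagen, had 203 and 2 counts (log2 fold change -5.83). Col1a1 and Col3a1 had log2 fold changes of -0.37 and 0.38 in DSCs. Col12a1, another collagen of fibril surfaces, named after its values were seen, went the other way, with 161274 and 403758 counts in DPCs (log2 fold change 1.36) and 269448 and 609615 in DSCs (0.91).

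Enzymes that build the sugar chains formed 3 lists. None of the 7 genes for the linkage of chains to the core protein was past 4-fold in either cell type, and their median log2 fold change was -0.13 in both. Of 15 chondroitin and dermatan sulfate genes tested, 1 was at least 4-fold higher in high-passage DPCs: Ust, which adds 2-O sulfate to uronic acid, with 1107 and 6403 counts (log2 fold change 2.57), beside the 5.58% of all genes given above. None was past 4-fold in DSCs, where 14 of the 15 had a log2 fold change above 0 and the median was 0.47. In DPCs 9 of the 15 were above 0 and the median was 0.40. Of all genes tested, 50.2% were above 0 in DSCs and 51.5% in DPCs. In DSCs Ust had 976 and 2451 counts (log2 fold change 1.06).

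Of 9 keratan sulfate genes tested, 1 was at least 4-fold higher in high-passage DPCs and none was past 4-fold in DSCs. Chst1, which sulfates galactose in keratan sulfate, had 106 and 774 counts in low- and high-passage DPCs (log2 fold change 2.88) and 621 and 220 counts in DSCs (log2 fold change -1.75). It was thus higher at passage 9 in DPCs and lower in DSCs, and neither counting interval included 0. Neither of the 2 tyrosine sulfotransferase genes was past 4-fold.

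Among 10 tested genes for processing and cleavage of the core proteins, Mmp3, a protease that can cut decorin and biglycan, was at least 4-fold higher at passage 9 in both cell types, with 146 and 6252 counts in DPCs (log2 fold change 5.44) and 63 and 1793 in DSCs (log2 fold change 4.52). Adamts5, an aggrecan-cleaving protease, had 11801 and 2257 counts in DPCs (log2 fold change -2.35). Tll1, a relative of the protease that trims probiglycan, had 720 and 166 counts in DPCs (log2 fold change -2.07). In DSCs both were within 2-fold, at -0.45 and -0.97. Of 10 receptor and growth factor genes, 1 was past 4-fold, Wisp1 (also called Ccn4), a secreted partner of decorin and biglycan, with 30416 and 4362 counts in DPCs (log2 fold change -2.76) and 33277 and 13550 in DSCs (log2 fold change -1.56).

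**Figure D5:**
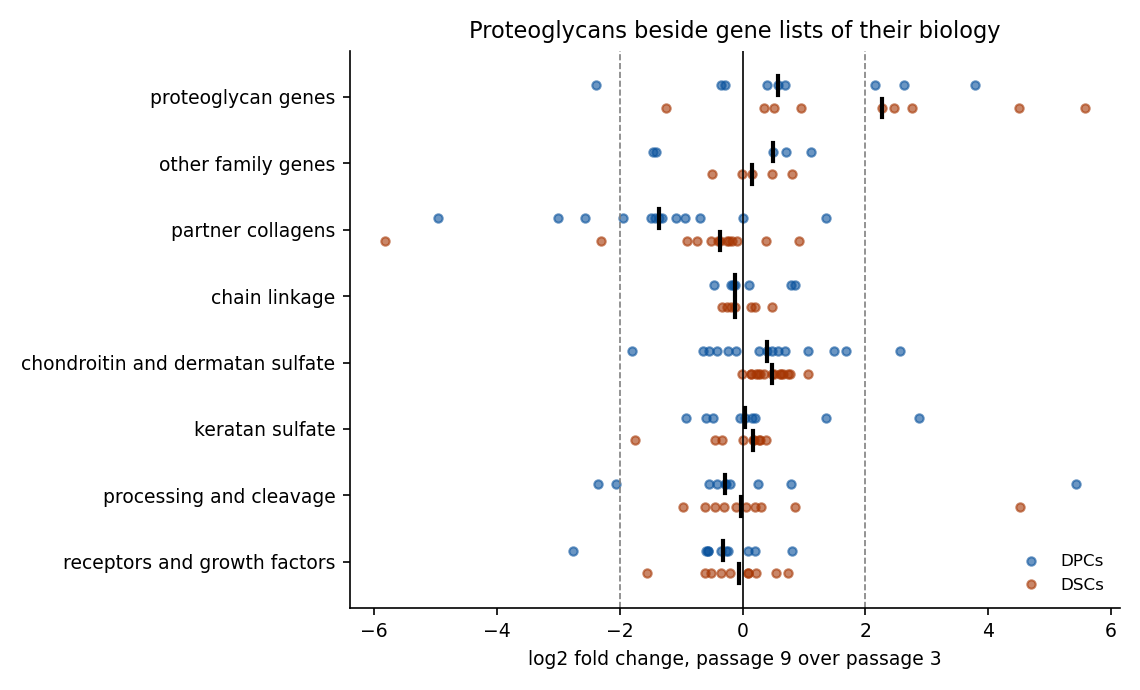
Log2 fold change of passage 9 over passage 3 for each tested gene of the 9 proteoglycans and of 7 lists of genes around them, in DPCs and DSCs; short black bars are list medians, dashed lines mark 4-fold, and genes with a library at 0 counts are drawn at fitted values. The proteoglycans had the highest list median in DSCs, 2.26, and the partner collagens the lowest in DPCs, -1.36.

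Some markers of tendon and cartilage differed between the cell types as Fmod did and others did not. Of 4 tendon markers tested, 3 were at least 4-fold lower in DPCs than in DSCs at passage 3 and 1 was higher, and at passage 9 it was 2 lower and 1 higher. The CPM summed over the list was 25.5 and 46.0 in DPCs at passages 3 and 9 and 1148 and 1387 in DSCs, in DSCs most of it from Thbs4, a tendon matrix glycoprotein (313, 887, 41307 and 60793 counts). The tendon transcription factor Scx had 191, 319, 1833 and 2009 counts, and Mkx, another, had 69, 401, 326 and 356. Tnmd, a defining tendon gene, had 367, 44, 50 and 12 counts, the reverse order of cell types.

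Of 7 chondrocyte markers tested, 3 were at least 4-fold lower in DPCs at passage 3 and 2 at passage 9, and the others were within 4-fold. Their summed CPM was 10.4 and 11.5 in DPCs and 132 and 128 in DSCs, of which Comp, also a tendon matrix gene, gave 80.7 and 101 in DSCs. Acan, the cartilage proteoglycan, was unlike Comp, with 34.3 and 1.73 CPM in DSCs at passages 3 and 9, and Col2a1 was at 0 in both DPC libraries and at 203 and 2 counts in DSCs. The part of such cells in the Fmod difference was not tested.

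Fmod had the widest range of the members over the 4 libraries, 6.31 on the log2 CPM scale. The genes whose 4 values, centred on their mean, lay nearest to those of Fmod among 12184 genes of mean raw count at least 100 were Chrdl1, Col8a2 and Chdh, at Euclidean distances of 0.825, 0.838 and 1.07 log2 units. Chrdl1 had 134, 130, 5091 and 4168 counts, Col8a2 had 450, 291, 13788 and 12028, and Chdh had 15, 29, 1050 and 936. All 3 were low in both DPC libraries and high in both DSC libraries, as Fmod was. Among the members, the closest pairs of profiles were Aspn and Omd, at 0.848, and Bgn and Podn, at 0.855.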

How the data were processed

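RNA of 4 mouse libraries was sequenced, 1 for each cell type and passage. The authors deposited raw counts per gene, and FPKM values per library. The submitters' processing notes name Bowtie 0.12.2 and the builds mm8 and mm9 without a role, and gene positions in the deposited tables match GRCm38; the counting program, strand setting and handling of multiply mapped reads were not given in the sources used here. The labels name a TruSeq kit, and the methods name a NEBNext kit without saying for which samples.

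Members and lists were chosen with earlier results of these data known. Genes whose raw counts averaged 10 or more were kept. Log2 CPM (edgeR 4.0.16, limma 3.58.1, R 4.3.3; TMM scaling, prior count 2) gave fold changes, with Clopper-Pearson intervals from SciPy 1.17.1 at 95%, and 4-fold was the threshold, without a test. An additive model of cell type and passage was tested by quasi-likelihood in edgeR, with DESeq2 1.42.0 as an alternative, both at an adjusted p of 0.05. Promoters are from RefSeq. All members were named, with at most the 3 largest genes per list and direction past 4-fold with passage, family genes beside members, the 3 genes nearest the widest-ranging member, and markers for the checks. Library totals of 34981284 to 47604059 counts set the floors, and intervals and floors cover counting error only. Other scalings, prior counts, filters, thresholds, halved counts and FPKM were tried.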

Additional observations from a re-analysis of the deposited data

Results flagged for a closer look

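For 2 members the passage change had opposite directions in DPCs and DSCs, and with 1 library a group neither difference was tested. Prelp was lower at passage 9 in DPCs and higher in DSCs, a difference of -0.87 between the log2 changes (counting interval -0.92 to -0.82), and the antisense gene that shares bases with it moved the same way in each cell type. Lum had 8 counts at passage 3 and 0 at passage 9 in DPCs but 0 and 109 in DSCs, a fitted difference of -7.97 that depends on the prior count.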

How the results depend on the processing

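No paired analysis was possible because each group has 1 library, and for the same reason no replicate could be left out. Of 360 member fold changes under the alternatives, 0 changed sign and 68 moved beyond their counting interval. Leaving Lum aside, the largest move was 0.47 on the log2 scale, and 0.10 under another scaling alone. The count of members past 4-fold with passage in DPCs, 4, became 2 on FPKM with a pseudocount of 1, and 3, with none lower, with a prior count of 10, with halved counts, with a mean count of at least 100 and on FPKM with a pseudocount of 0.1. The count in DSCs, 5, became 4, and that between cell types at passage 9, 4, became 3, with a mean count of at least 100 and on FPKM with a pseudocount of 1; both were 6 at a 2-fold threshold. The count at passage 3 between cell types, 2, became 1 with a prior count of 10, with halved counts, with a mean count of at least 100, and on FPKM with a pseudocount of 0.1 or 1, and became 4 at a 2-fold threshold. Members whose passage changes differed at least 4-fold between cell types were 2, and 1 on FPKM with a pseudocount of 1. For passage, 0 members called by edgeR became 3 with DESeq2. For cell type, 0 became 4 with DESeq2, and 1 (Fmod) with a mean count of at least 100 or with halved counts. The causes were not tested. The order of levels shared 28 of 36 ranks when counts per kilobase of merged exons replaced FPKM. Depth limits Lum above all, since 8 counts against 0 could not be told from a difference of 0 with halved counts.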
